A study of Mus musculus with 8 samples.

Results

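Divergent bidirectional promoters are places where 2 genes start close together and are transcribed away from each other, so that a single stretch of DNA serves both. Pairs of protein-coding genes on opposite strands were taken from the GENCODE M1 annotation of mm9, where the transcription start site (TSS) of the minus-strand gene lay 0 to 1000 bp left of that of the plus-strand gene. This gave 808 pairs, formed by 1599 of the 22367 protein-coding genes (7.15%). The region of a pair ran from 1 kb left of the first TSS to 1 kb right of the second, and the choice used no 5hmC value. They were followed through 6 lists of 5-hydroxymethylcytosine (5hmC) peaks made by GLIB-Seq, in which a glucose is put on 5hmC, oxidised and coupled to biotin so that fragments with 5hmC are pulled down and sequenced. The lists come from 1 library each of untransfected E14 embryonic stem cells (ESCs), C57BL/6 mouse embryonic fibroblasts (MEFs), brain and liver of C57BL/6 mice aged 8 weeks, and E14 ESCs carrying a hairpin to GFP as control (shGFP) or to Suz12 (shSuz12), a core subunit of Polycomb repressive complex 2. The MEFs are labelled embryonic day 11, whereas the study's methods name a later day. All 3 ESC libraries come from the same line, both transfected cultures were selected with puromycin, and the sources used here do not name the Suz12 hairpin of this assay. Brain and liver are whole tissues with mixed cells. Peak lists hold no expression values, so the labelled cell types were not checked against their markers.

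In mammals, Tet enzymes oxidise 5-methylcytosine at CpG dinucleotides to 5hmC. Promoters in CpG islands are as a rule kept free of DNA methylation, while gene bodies and promoters poor in CpG are usually methylated. Divergent pairs are known to be frequent among genes that most cells use, such as those for DNA repair, mitochondrial proteins and RNA processing, and head-to-head pairs are also the common layout of H2A and H2B histone genes. Shared promoters of this kind often lie in a single CpG island and rarely hold a TATA box.

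The pairs had these features. The distance between the TSSs ranged from 1 to 987 bp, with a median of 141 bp and quartiles of 73.0 and 271 bp. The pairs lay on 20 chromosomes, with 57 on chromosome 8, 19 on the X and 0 on the Y, and 17 genes took part in more than 1 pair. By the CpG content of the sequence between -700 and +200 bp, 77.7% of the member TSSs were in the high CpG class, against 30.9% of the 20768 other protein-coding TSSs, and 4.44% were in the low CpG class, against 43.7%. Both TSSs were high CpG in 578 pairs (71.5%), 1 of them in 100 pairs and neither in 130. Within 1 kb of the TSS the median was 4.85 CpG per 100 bp at member TSSs and 2.75 at the others. In the 300 bp from -250 to +50, on either strand, the ETS core CCGGAAG was found at 27.8% of the member TSSs, against 10.8% of all protein-coding TSSs and 18.1% of the other high CpG TSSs. CATGCGC, part of the motif of the factor NRF1, was found at 9.13%, 4.56% and 7.95%, respectively, and the CCAAT box at 42.8%, 37.9% and 35.6%. GGGCGG, the core of the Sp1 motif, stood at 68.4%, 43.4% and 79.1%, and TATAAA at 4.44%, 13.4% and 4.79%. The ETS core and CCAAT were thus more frequent at the member TSSs than at the other high CpG TSSs, and GGGCGG less. A match is a string of letters and not evidence of a bound factor, and both TSSs of a close pair read much of the same window.

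The spans between the TSSs of 9 pairs are shown because these pairs recur in the comparisons that follow. They are from the mm9 reference, on the plus strand, from the base after the TSS of the minus-strand gene to the base before that of the plus-strand gene, with every CpG in capitals. No annotated exon overlapped them. The first pair carried peaks in 5 of the 6 lists (Tssk3, a testis kinase, and a RIKEN gene model; chr4:129168267-129168433). The next had the largest fall from shGFP to shSuz12 among pairs with an ESC peak (Anxa5, an annexin that binds phosphatidylserine, chr3:36374766-36375056). The one after it had the largest rise among all pairs (Smpd2, a neutral sphingomyelinase, and Ppil6, chr10:41210176-41210244).
Tssk3/1700125D06Rik: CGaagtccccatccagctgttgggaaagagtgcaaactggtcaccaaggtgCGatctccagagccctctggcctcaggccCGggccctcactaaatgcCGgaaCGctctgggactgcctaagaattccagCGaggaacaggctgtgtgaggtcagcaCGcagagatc
Anxa5/1810062G17Rik: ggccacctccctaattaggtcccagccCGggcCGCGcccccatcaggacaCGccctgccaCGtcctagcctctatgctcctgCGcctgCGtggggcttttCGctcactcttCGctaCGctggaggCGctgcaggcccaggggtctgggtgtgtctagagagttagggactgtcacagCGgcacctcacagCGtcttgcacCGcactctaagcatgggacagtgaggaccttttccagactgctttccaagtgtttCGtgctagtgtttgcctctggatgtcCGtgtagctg
Smpd2/Ppil6: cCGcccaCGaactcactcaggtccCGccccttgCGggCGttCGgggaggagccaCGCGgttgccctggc
Those 3 spans held 7, 16 and 8 CpGs.

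The pairs whose coverage in 1 of the 4 cell types most exceeded that in the other 3, among pairs with a span of 30 to 300 bp, were Kctd19/Lrrc36 in ESCs (chr8:107937403-107937470), 2010002M12Rik/Ifit1 in MEFs (Ifit1 is an interferon-induced gene, chr19:34715234-34715360), Ssna1/Anapc2 in brain (Anapc2 is a subunit of the anaphase-promoting complex, chr2:25127959-25127997) and Znrd1/Znrd1as in liver (chr17:37095505-37095536).
Kctd19/Lrrc36: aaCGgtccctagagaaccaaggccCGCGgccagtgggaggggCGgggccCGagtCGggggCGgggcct
2010002M12Rik/Ifit1: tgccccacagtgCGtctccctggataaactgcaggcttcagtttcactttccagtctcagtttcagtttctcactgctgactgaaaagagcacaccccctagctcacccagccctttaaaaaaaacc
Ssna1/Anapc2: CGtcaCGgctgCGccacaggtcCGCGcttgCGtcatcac
Znrd1/Znrd1as: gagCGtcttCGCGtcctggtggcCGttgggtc
The span of Ifit1 had 1 CpG in 127 bp, and that of Kctd19/Lrrc36 had 7 CpGs and 2 copies of GGGCGG in 68 bp.

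Another 2 pairs were picked after their values had been seen. They are the type IV collagen pair Col4a4/Col4a3 (chr1:82583425-82583495), with peaks only in ESCs and shGFP among the 6 lists and Mrps12/Sars2 (a mitochondrial ribosomal protein and the mitochondrial seryl-tRNA synthetase, chr7:29526840-29527009), with a peak in liver alone.
Col4a4/Col4a3: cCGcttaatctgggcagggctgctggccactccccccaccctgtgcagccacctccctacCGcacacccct
Mrps12/Sars2: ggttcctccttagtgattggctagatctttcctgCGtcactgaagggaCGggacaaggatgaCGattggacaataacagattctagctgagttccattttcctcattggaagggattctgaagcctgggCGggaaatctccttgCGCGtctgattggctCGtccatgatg
The Col4a4/Col4a3 span had 2 CpGs in 71 bp, and that of Mrps12/Sars2 had 7 in 170 bp with 4 CCAAT boxes.

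The divergent region was touched by a 5hmC peak in 172 of the 808 ESC pairs (21.3%, 95% interval 18.5 to 24.3%). The number was 273 in MEFs (33.8%, 30.5 to 37.2%), 176 in brain (21.8%, 19 to 24.8%), 340 in liver (42.1%, 38.6 to 45.6%), 128 in shGFP (15.8%, 13.4 to 18.5%) and 101 in shSuz12 (12.5%, 10.3 to 15.0%). Over all 22367 protein-coding genes, the background share with a peak within 1 kb of the TSS was 31.9% in ESCs, 30.1% in MEFs, 20.0% in brain, 29.4% in liver, 27.1% in shGFP and 21.4% in shSuz12. Divergent regions were thus below the background in the 3 ESC lists and above it in liver and, by less, in MEFs. As the region of a pair is longer than that of a single gene, the window of 1 kb on each side of each member TSS was also set against the same window at the 20768 other TSSs. The share with a peak was then 19.6% against 32.9% in ESCs, 30.7% against 30.0% in MEFs, 19.4% against 20.1% in brain, 38.6% against 28.7% in liver, 14.4% against 28.1% in shGFP and 11.4% against 22.2% in shSuz12. The ratio of the 2 shares was 0.597, 1.02, 0.970, 1.35, 0.514 and 0.513, respectively. Per bp, with 1 kb on each side, the divergent regions were below the other promoters, though in liver so slightly that no difference can be read from it. Peaks covered 6.30% of their bp in ESCs, 8.11% in MEFs, 4.59% in brain, 9.88% in liver, 5.02% in shGFP and 3.11% in shSuz12, against 13.6, 10.1, 6.82, 10.1, 11.5 and 6.18% at the other promoters, which gave ratios of 0.464, 0.807, 0.673, 0.977, 0.437 and 0.503. The liver ratio was given an interval of 0.898 to 1.06, which is that of the share of regions with a peak, scaled. It leaves out the spread of bp between regions and the error of the other promoters. With 2 kb on each side the ratio turned in liver (1.46), brain (1.07) and MEFs (1.03), and in liver it was also 1.01 for pairs at most 300 bp apart. The intervals of the shares are exact (Clopper-Pearson) and cover counting error alone, each condition has 1 library with no spread between replicates, and no difference was tested. The lists start at different scores, 80 in ESCs and liver, 50 in shGFP, 30.3 in shSuz12 and 30 in MEFs and brain, and give no read counts, so their depth is unknown. With scores of 80 or more, 13.1% of the divergent regions had a peak in MEFs and 7.43% in brain, while ESCs and liver, which start there, stayed at 21.3% and 42.1%.

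**Figure D1:**
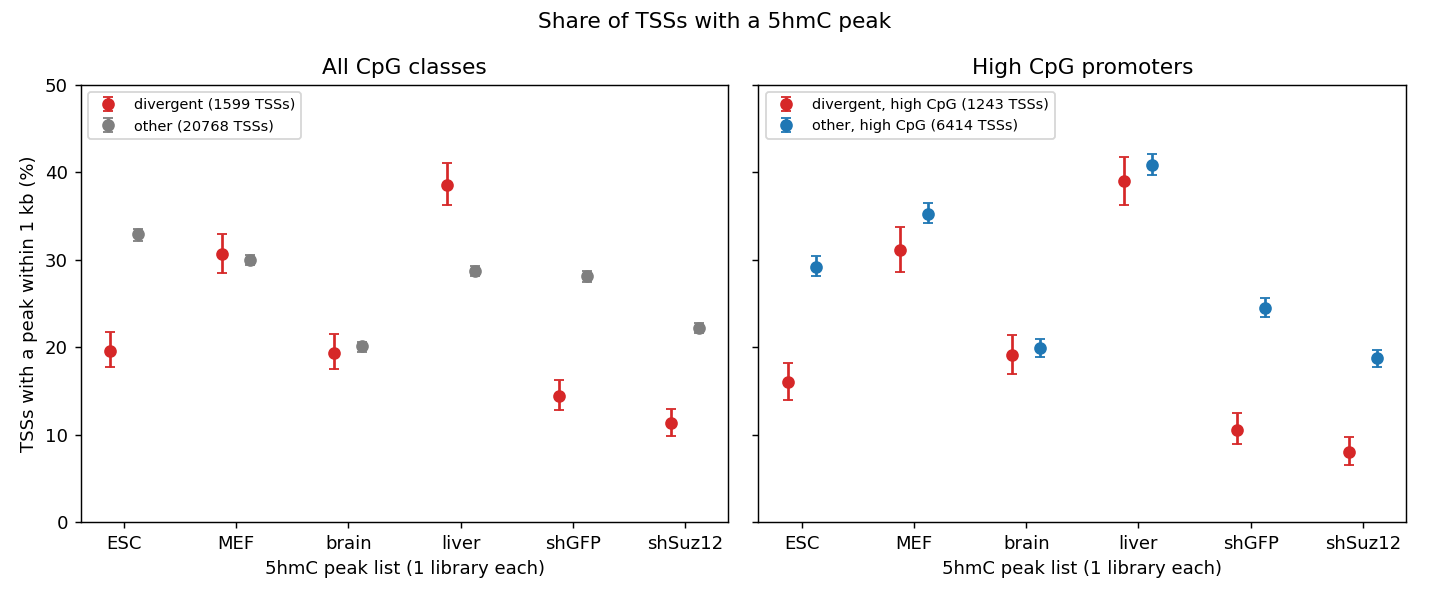
Share of TSSs with a 5hmC peak within 1 kb (vertical axis, percent, with exact 95% intervals) in each of the 6 lists, for member TSSs of divergent pairs and for other protein-coding TSSs, in all CpG classes on the left and in the high CpG class on the right. In ESCs, shGFP and shSuz12 the divergent TSSs lie below the others in both panels, and in liver they lie above the others on the left (38.6% against 28.7%) but not on the right (39.0% against 40.9%).

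The CpG class moved with the liver value. Among high CpG TSSs alone, the share with a peak in liver was 39.0% at the 1243 member TSSs (36.3 to 41.8%) and 40.9% at the 6414 others (39.7 to 42.1%), so the higher share in liver was not seen within the class. In ESCs the share was 16.0% at member TSSs (14.0 to 18.2%) and 29.2% at the others (28.1 to 30.4%), in shGFP 10.6% (8.96 to 12.5%) and 24.5% (23.5 to 25.6%), and in shSuz12 8.05% (6.59 to 9.70%) and 18.8% (17.8 to 19.7%). In MEFs it was 31.1% against 35.3%, and in brain 19.1% against 19.9%. The lower level in the 3 ESC lists was therefore as marked within the high CpG class, with ratios of the shares of 0.548, 0.433 and 0.429, although the CpG density of the member TSSs in the class (5.15 per 100 bp) was slightly below that of the others (5.45). By bp under peaks within 1 kb, high CpG member TSSs stood at 0.438 times the others in ESCs, 0.787 in MEFs, 0.776 in brain, 0.745 in liver, 0.368 in shGFP and 0.456 in shSuz12, below 1 in all 6 lists. The 71 low CpG member TSSs went the other way. A peak lay within 1 kb of 50.7% of them in ESCs (38.6 to 62.8%) and 45.1% in liver (33.2 to 57.3%), against 30.2% and 16.7% of the 9066 other low CpG TSSs.

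**Figure D2:**
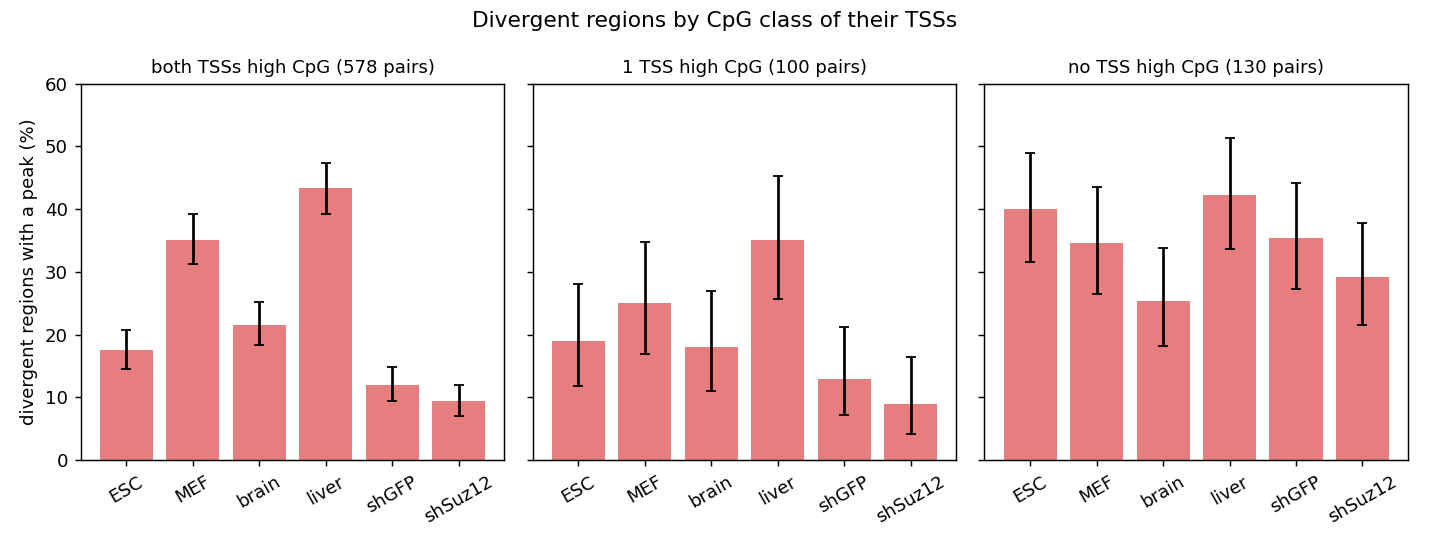
Share of divergent regions with a peak (vertical axis, percent, bars with exact 95% intervals) in the 6 lists, split by the CpG class of their TSSs. In ESCs the share rises from 17.5% where both TSSs are high CpG to 40.0% where neither is, while in liver it is 43.3% and 42.3%.

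Grouped as whole regions, the 578 pairs with both TSSs high CpG had a peak in 17.5% in ESCs, 35.1% in MEFs, 21.6% in brain, 43.3% in liver, 11.9% in shGFP and 9.34% in shSuz12. For the 130 pairs with neither TSS high CpG the shares were 40.0%, 34.6%, 25.4%, 42.3%, 35.4% and 29.2%, respectively. The ESC lists thus separated the CpG-poor from the CpG-rich pairs, and the intervals for MEFs, brain and liver overlapped between these groups. The 100 pairs with a single high CpG TSS were near the CpG-rich ones in the ESC lists, at 19% in ESCs, 13% in shGFP and 9% in shSuz12.

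Promoters of like layout were set beside the pairs. Of 827 other genes whose head-to-head partner overlaps them, with the minus-strand TSS right of the plus-strand TSS, 25.8% had a peak within 1 kb of the TSS in ESCs (22.8 to 28.9%). Of 439 other genes with a non-coding partner transcribed divergently from within 1000 bp, 25.3% had one (21.3 to 29.6%). Both lay between the member TSSs (19.6%, 17.7 to 21.7%) and the 5653 high CpG TSSs with no partner of either kind (30.4%, 29.2 to 31.6%). In liver the same 4 shares were 39.7, 32.8, 38.6 and 41.3%, with overlapping partners, non-coding partners, members and no partner in that order. The no-partner set holds high CpG TSSs only and the other sets all classes, so layout and CpG class are mixed here. High CpG member TSSs alone were at 16.0% in ESCs and 39.0% in liver. Since neighbouring TSSs share sequence and peaks, counting intervals over genes are narrower than their true error.

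In ESCs, pairs further apart had a peak more often. The region had a peak in 17.8% of the 298 pairs up to 100 bp apart in ESCs (13.6 to 22.6%), 19.2% of the 339 pairs over 100 to 300 bp apart (15.1 to 23.8%) and 31.6% of the 171 pairs over 300 to 1000 bp apart (24.7 to 39.1%). The wider regions are also longer, but bp under peaks, which length does not raise, were 5.16, 5.10 and 9.94% of the regions. In liver the shares were 44.0, 41.6 and 39.8%, and the bp under peaks 10.7, 9.82 and 8.80%, so that the order was the opposite with overlapping intervals. Among pairs with both TSSs high CpG, 13.8% had a peak in ESCs up to 100 bp (9.56 to 19%) and 26.0% above 300 bp (17.6 to 36.0%), with intervals that overlap slightly. In shGFP the shares by distance were 14.4, 13 and 24.0% over all pairs and in shSuz12 10.7, 11.2 and 18.1%. Within the high CpG pairs these lists showed overlapping intervals, at 11.1% (7.32 to 16.0%) against 15.6% (9.02 to 24.5%) in shGFP and 8.44% (5.16 to 12.9%) against 12.5% (6.63 to 20.8%) in shSuz12.

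Around the TSS, 5hmC was lowest between the genes of a pair. Between the 2 TSSs, with both included, peaks covered 4.75% of the bp in ESCs, 2.80% in MEFs, 1.13% in brain, 2.14% in liver, 4.51% in shGFP and 2.83% in shSuz12. From 1 to 2 kb outside the TSSs, the mean of both sides was such that the centre stood at 0.304 times its flanks in ESCs, 0.185 in MEFs, 0.0773 in brain, 0.0739 in liver, 0.539 in shGFP and 0.467 in shSuz12. At the other promoters the TSS itself stood at 0.842, 0.593, 0.443, 0.356, 1.18 and 0.949 times the same flanks. The ratio was therefore lower at divergent pairs in each of the 6 lists as deposited. With scores of 80 or more, which leave 32 peaks on the divergent regions in shSuz12, the centre of the pairs stood at 1.04 times its flanks in that list. The other promoters were not read at that score, so the order of the 2 sets is not known there. Among pairs with both TSSs high CpG the ratio in the lists as deposited was 0.0409, 0.0488, 0.00852, 0.0217, 0.0911 and 0.0729. At other high CpG TSSs it was 0.108, 0.0615, 0.0471, 0.0629, 0.295 and 0.152, so the order held within the class in all 6 lists. Read at the TSS itself over all high CpG member TSSs, it held in 5 lists and turned in MEFs, with 0.0800 at member TSSs and 0.0617 at the others.

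**Figure D3:**
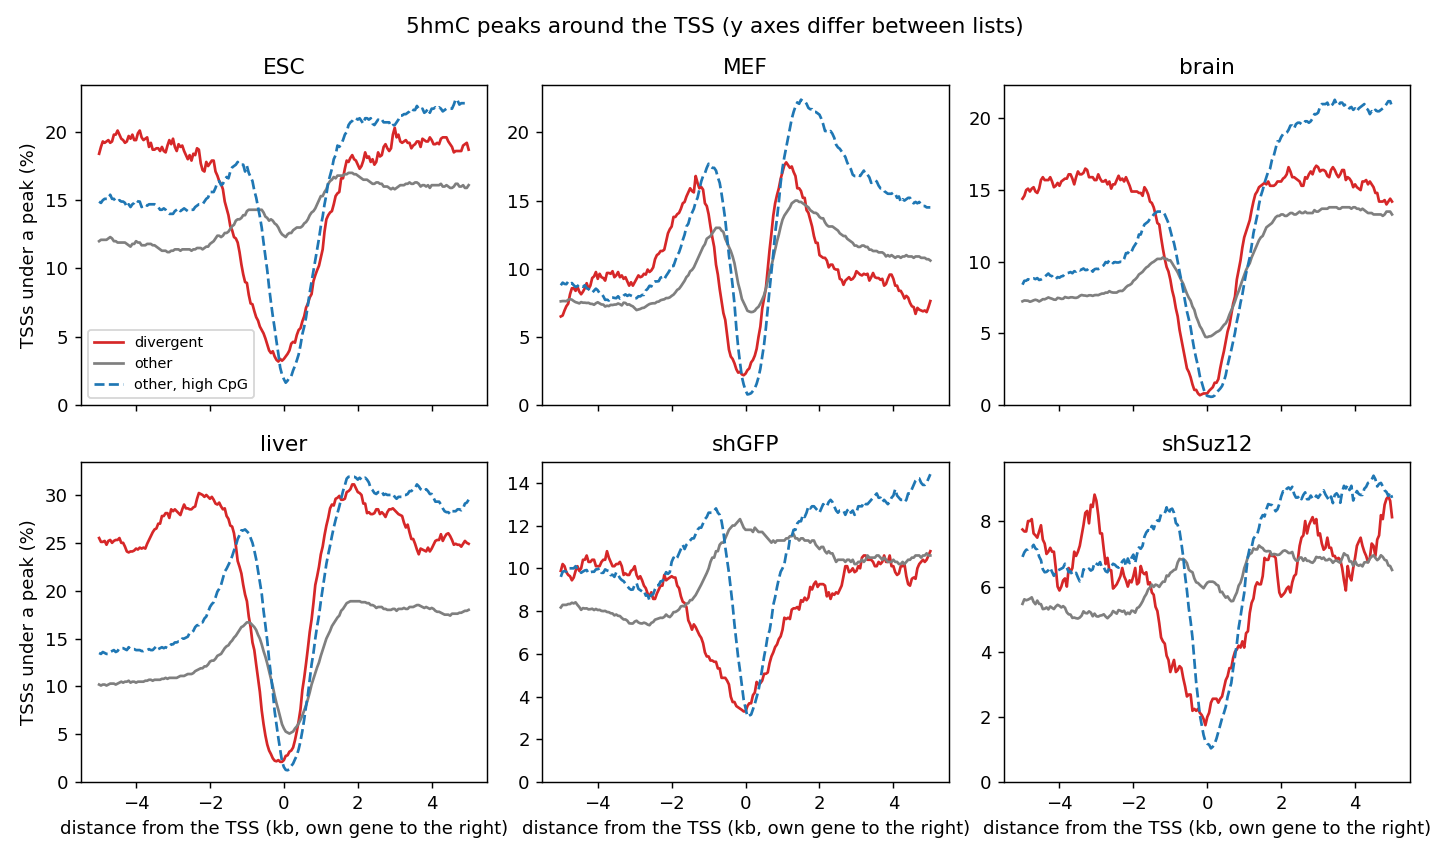
Percentage of TSSs under a 5hmC peak (vertical axis, its range differing between panels) at distances up to 5 kb from the TSS (horizontal axis, kb, own gene to the right), in each list, for divergent member TSSs, other TSSs and other high CpG TSSs. In liver the divergent line is as high 2 to 5 kb upstream as downstream (26.7% and 26.5%), where the other high CpG promoters have 14.5% and 29.9%. The evenness of the divergent line is nearly all given by construction, as both TSSs of each pair are counted.

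The profile of the member TSSs was even on its 2 sides. This evenness is nearly all given by construction, so no result is read from it. Both TSSs of each pair are counted, and the upstream side of 1 member is the downstream side of its partner. At 2 to 5 kb upstream of member TSSs, ESC peaks covered 18.9%, MEF peaks 9.43%, brain peaks 15.6% and liver peaks 26.7%, against 11.7, 7.46, 7.64 and 10.8% upstream of the other TSSs and 14.7, 8.51, 9.42 and 14.5% upstream of the other high CpG TSSs. Downstream, on the side of the own gene, the values for the members were 18.9, 8.95, 15.6 and 26.5%. Those for all other TSSs were 16.1, 11.6, 13.5 and 18.1%, and those for the other high CpG TSSs 21.4, 16.7, 20.4 and 29.9%. The window was not cut at the gene end, so for short genes it runs past it. Upstream the members were thus above the other high CpG promoters in all 4 cell types, and downstream they were below them in all 4, while they were above all other TSSs in ESCs, brain and liver and below them in MEFs. In MEFs the members were highest close to the TSS, at 17.8% at 1100 bp downstream, against a mean of 8.95% from 2 to 5 kb, whereas in liver they reached 31.1% at 1850 bp and had a mean of 26.5% from 2 to 5 kb.

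**Figure D4:**
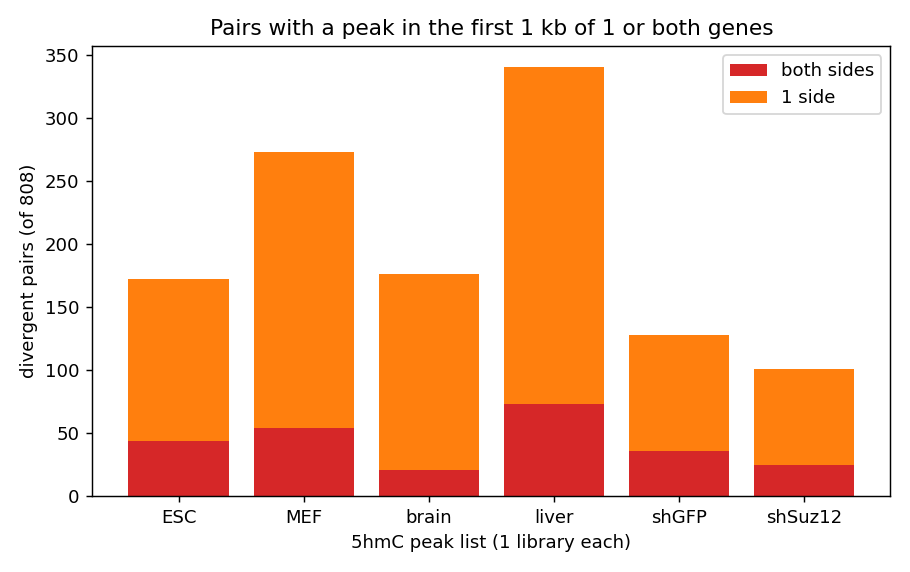
Number of the 808 divergent pairs (vertical axis) with a peak in the first 1 kb of both genes or of 1 gene, in each of the 6 lists. In each list most pairs with a peak have it on 1 side, 128 against 44 in ESCs and 267 against 73 in liver.

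Most pairs with a peak had it on 1 side, and the share with peaks on both sides was above the product of the shares of the separate sides. In ESCs 44 pairs had a peak in the first 1 kb of both genes and 128 in that of 1 gene. These numbers were 54 and 219 in MEFs, 21 and 155 in brain, 73 and 267 in liver, 36 and 92 in shGFP and 25 and 76 in shSuz12. Pairs with both sides made up 5.45% of all pairs in ESCs, 6.68% in MEFs, 2.60% in brain, 9.03% in liver, 4.46% in shGFP and 3.09% in shSuz12. The product of the shares of the 2 sides was lower in each list, at 1.76, 4.08, 1.47, 6.53, 1.03 and 0.593%, respectively. Among the pairs with both sides, peaks also reached between the TSSs in 23, 14, 6, 18, 24 and 13, where 1 crossing peak can count on both sides. The product also pools CpG classes with unlike shares, and a link between the sides was not tested. No pair had a peak between the TSSs without 1 on a side. This was largely fixed by size, as the median distance was 141 bp. The median peak of a list was 564 bp (shSuz12) to 1063 bp (brain) wide. Peaks reached between the TSSs in 37 pairs in ESCs, 26 in MEFs, 9 in brain, 27 in liver, 35 in shGFP and 22 in shSuz12, and covered that span whole in 16, 11, 4, 10, 18 and 10. Over the 808 pairs, the bp covered on the 2 sides had a Pearson correlation of 0.32 in ESCs, 0.17 in MEFs, 0.09 in brain, 0.18 in liver, 0.36 in shGFP and 0.31 in shSuz12. This is a description across regions, in which a peak that crosses the centre counts on both sides. Where a pair had a peak, the median part of its region under peaks was 23.8% in ESCs, 21.6% in MEFs, 18.3% in brain, 20.7% in liver, 28.1% in shGFP and 21.8% in shSuz12. The peaks themselves were like those on other promoters, as the median width was 1082 bp against 963 bp in ESCs and 1140 bp against 1104 bp in liver, and median scores of 247 against 225 and 197 against 193.

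Across the lists, 305 of the 808 pairs (37.7%) had no peak in any of the 6 and 16 (1.98%) had a peak in all 6. In equal windows, 42.0% of the member TSSs had none, against 40.5% of the other TSSs and 31.7% of the other high CpG TSSs. Of the 4 cell types, liver was the only one with a peak at 12.3% of the member TSSs, against 6.02% of the other TSSs and 10.6% of the other high CpG TSSs. For ESCs alone these values were 2.88, 7.99 and 5.89%. Of the 172 pairs with a peak in ESCs, 113 had one in liver too, which is 65.7% of the ESC pairs and 33.2% of the 340 liver pairs. Of the 176 brain pairs 72.2% were also liver pairs, and these made up 37.4% of the liver pairs. Some chromosomes stood apart from the rest in these lists. On chromosome 8, 43.9% of the 57 pairs had a peak in ESCs (30.7 to 57.6%), against 19.6% elsewhere (16.8 to 22.6%), and the other promoters of that chromosome were at 55.1%. On the X, 1 of the 19 pairs had a peak in each of ESCs, MEFs, shGFP and shSuz12 and 0 in brain and liver, where the exact 95% upper bound of a share of 0 was 17.6%, and the other promoters of the X were at 0.223 to 5.92%.

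Gene groups listed by symbol were unevenly represented in the pairs, and these lists were drawn up with earlier results of the data known. Of the 67 replication-dependent histone genes measured here 27 were members (40.3%), of 120 genes of DNA repair and replication 34 (28.3%), of 92 genes named as respiratory chain or ATP synthase components, assembly factors included, 23 (25%), of 81 RNA polymerase subunits and splicing factors 20 (24.7%) and of 76 mitochondrial ribosomal proteins 16 (21.1%). The share was 18.4% for aminoacyl-tRNA synthetases (7 of 38) and 14.0% for the proteasome (7 of 50). It was 4.89% for Zfp zinc fingers (18 of 368), 2.06% for developmental regulators (5 of 243) and 2.27% for predicted gene models with a Gm symbol (46 of 2028), against 7.15% of all genes. RIKEN gene models are also among the members but were not counted in that last group. Of 6 type IV collagen genes 2 were members, as a single pair.

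Of the 14 pairs with a histone gene, 11 had no peak in any list, as did 305 of all 808 pairs (37.7%). Hist1h2ba/Hist1h2aa was the exception in the ESC lists. It encodes the testis-type H2B and H2A, and 88.7% of its region lay under peaks in ESCs, 32.2% in MEFs, 41.2% in brain, 0% in liver, 89.5% in shGFP and 73.9% in shSuz12. The other 2 pairs with a peak had it in liver alone, at 27.5% of the region for Hist1h2ah/Hist1h2bk and 14.9% for Hist2h2ac/Hist2h2be. Reads with a unique hit were kept, and histone genes have close copies, so a lack of peaks there may also reflect reads that could not be placed, which was not tested. Hist1h2ba/Hist1h2aa was singled out after its values were seen.

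Of the 22 pairs of the respiratory chain list, 1 had a peak in ESCs (4.55%), 9 in MEFs (40.9%), 2 in brain (9.09%), 11 in liver (50%), 1 in shGFP and 1 in shSuz12 (4.55% each). Over all 808 pairs the shares were 21.3, 33.8, 21.8, 42.1, 15.8 and 12.5%, so the list was near the general share in MEFs and liver and below it in the other 4 lists. Of its 11 liver pairs, Ndufa4/Phf14 and Cox4nb/Cox4i1 had 0.761% and 0.688% of the region covered. The widest cover in liver was that of Ndufa5/Asb15, at 38.9%, where Ndufa5 is a subunit of complex I. The 20 pairs with RNA polymerase or splicing genes had a peak in 1 in ESCs and in 9 each in MEFs and liver (45% each, against 33.8% and 42.1% of all pairs), and of the 7 proteasome pairs 6 had one in liver, 3 in MEFs and 1 each in ESCs and brain. No synthetase pair had a peak in ESCs, brain, shGFP or shSuz12, while 1 of 7 had it in MEFs and 3 in liver. Of the 16 mitochondrial ribosomal protein pairs, 5 had a peak in each of ESCs and MEFs, 3 in brain and 8 in liver. In shGFP and shSuz12 it was 1 each. The shares were 31.2% in ESCs and MEFs, 18.8% in brain, 50% in liver and 6.25% in shGFP and shSuz12. They lay above those of all pairs in ESCs and liver and below them in the other lists. These counts are small and nothing particular to a list was tested. The 45 pairs with a predicted Gm model were at 12 in ESCs, 11 each in MEFs, brain and shSuz12, 18 in liver and 12 in shGFP. The 16 pairs with a Zfp gene had a peak in 8 each in MEFs and liver and 3 each in ESCs and brain.

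Among the 33 pairs with a gene of DNA repair or replication, 5 had a peak in ESCs, 12 in MEFs, 10 in brain, 13 in liver, 7 in shGFP and 2 in shSuz12. These are 15.2, 36.4, 30.3, 39.4, 21.2 and 6.06%, on both sides of the 21.3, 33.8, 21.8, 42.1, 15.8 and 12.5% of all pairs. Peaks in all 6 lists were found at Wrn/Purg, where Wrn is the helicase of Werner syndrome, at 23.8% of the region in ESCs, 33.8% in MEFs, 38.2% in brain, 39.5% in liver, 19.4% in shGFP and 23.7% in shSuz12. Xrcc3/Zfyve21 also had peaks in all 6, at 13.9 to 29.0%. Lig4/Abhd13, with the DNA ligase of end joining, had 41.8% in brain, 39.6% in ESCs, 37.1% in MEFs and 34.0% in shGFP, and none in liver or shSuz12. Of the 33 pairs, 20 had a peak in some list and the rest had none, where 37.7% of all pairs had none. Examples without a peak in any list were Brca1/Nbr1 and Palb2/Dctn5, both with genes of homologous recombination, and Aimp2/Pms2, with a mismatch repair gene. Kinds of repair were not compared as sets. The 5 developmental regulators in pairs were Hoxc13, Foxj3, Foxm1, Foxa3 and Fzd4. The widest cover of these was 30.0% in liver at AA415398/Foxj3 and 28.9% in ESCs at Foxa3/Sympk, the latter with a liver transcription factor that had none in liver.

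**Figure D5:**
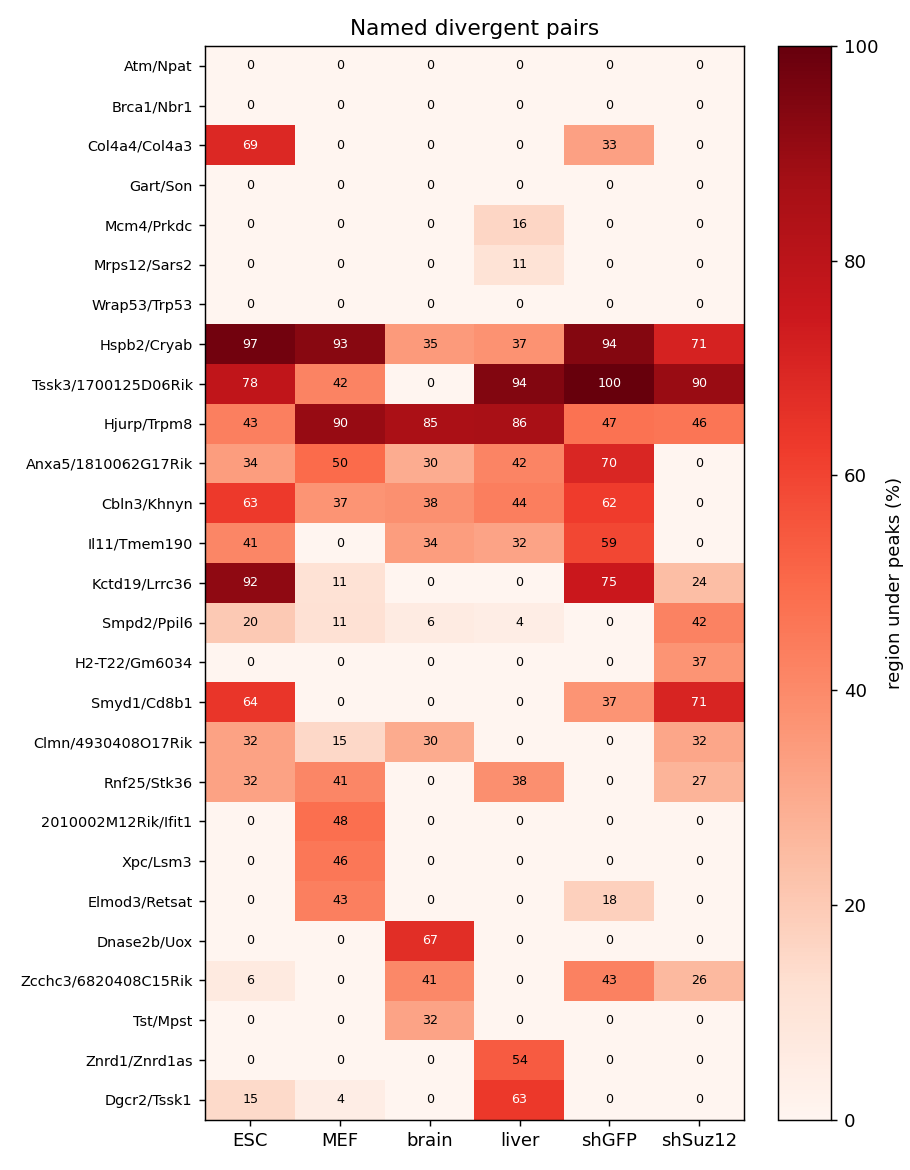
Percentage of the region under 5hmC peaks (colour scale, 0 to 100, with the value in each cell) for the named divergent pairs (rows) in the 6 lists (columns). Hspb2/Cryab is covered in all 6 lists, from 34.9% in brain to 97.4% in ESCs, whereas Znrd1/Znrd1as is covered in liver alone, at 53.6%.

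Of 15 head-to-head pairs listed because they are well known, 8 met the rule and the other 7 have TSSs that overlap in this annotation. Atm/Npat, Brca1/Nbr1, Gart/Son and Wrap53/Trp53 had no peak in any of the 6 lists, as did 37.7% of all divergent pairs. Atm and Trp53 act in the response to DNA damage. Mcm4/Prkdc, of a replicative helicase subunit and the DNA-dependent protein kinase, was covered in liver alone, at 16.0% by a peak inside Prkdc from 606 bp of its TSS. Mrps12/Sars2 had 10.8% in liver alone. Col4a4/Col4a3, which encodes 2 chains of the type IV collagen of basement membranes, went the other way, with 68.8% in ESCs and 33.1% in shGFP and none in the other 4 lists. Its ESC peak ran 1426 bp across both TSSs, and the shGFP peak, of 687 bp, also spanned both.

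The most covered region on average was that of Hspb2/Cryab, 2 small heat shock proteins of muscle and, for Cryab, of the lens. Its cover was 97.4% in ESCs, 93.0% in MEFs, 34.9% in brain, 37.2% in liver, 94.1% in shGFP and 71.2% in shSuz12. In brain and liver the peak lay in Hspb2 only, ending 162 and 107 bp inside its TSS, while in the ESC and MEF lists a further peak lay at the start of Cryab. Both TSSs are low CpG. Tssk3/1700125D06Rik had 78.3% in ESCs, 41.8% in MEFs, 0% in brain, 94.4% in liver, 100% in shGFP and 89.6% in shSuz12. Hjurp/Trpm8, of a histone chaperone of centromeres and a cold-sensing ion channel, is high CpG at both TSSs and yet had 43.0% in ESCs, 89.9% in MEFs, 85.2% in brain, 85.6% in liver, 47.3% in shGFP and 46.1% in shSuz12. In MEFs, brain and liver its peaks lay on both sides of the TSSs, and in ESCs and shGFP on the side of Trpm8 alone.

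Other pairs differed by cell type. Kctd19/Lrrc36 had 91.7% of its region under peaks in ESCs and 75.3% in shGFP, against 11.2% in MEFs and none in brain and liver, and it lies on chromosome 8, where the ESC lists are dense. Smyd1/Cd8b1, of a muscle methyltransferase and a chain of the T cell receptor partner CD8, had 64.1% in ESCs, 37.1% in shGFP and 70.7% in shSuz12 and none in MEFs, brain and liver. In MEFs the largest excess was that of 2010002M12Rik/Ifit1, at 48.4%, by a peak with a score of 57.2 across both TSSs. Xpc/Lsm3, of a damage sensor of nucleotide excision repair and a splicing protein, followed with 45.9%, and neither had a peak in the other 5 lists. Elmod3/Retsat had 43.3% in MEFs and 17.6% in shGFP. In brain Dnase2b/Uox led with 66.8%, where Uox is urate oxidase, an enzyme of the liver, and its liver cover was 0%. Tst/Mpst, 2 sulfurtransferases, had 32.2% in brain alone, and Zcchc3/6820408C15Rik had 40.6% in brain beside 42.8% in shGFP and 25.7% in shSuz12. Ssna1/Anapc2 had 32.0% in brain and 2.01% in ESCs. In liver Znrd1/Znrd1as had 53.6% and Dgcr2/Tssk1 63.4%, the latter beside 14.8% in ESCs. The scores of these MEF and brain peaks are partly below 80, such as 33.8 at Tst/Mpst, a level at which the ESC and liver lists hold no peaks.

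The Suz12 knockdown was compared with its control by the same regions. Of the 128 shGFP pairs, 66 were without a shSuz12 peak (51.6%, 42.6 to 60.5%), where the background over all protein-coding promoters was 44.1%. In high CpG windows the share was 62.1% for members (53.3 to 70.4%) and 52.4% for the others (49.8 to 54.8%). Against untransfected ESCs, which like shGFP have no knockdown, 28 of the 128 pairs lacked an ESC peak (21.9%, 15.1 to 30.0%), against a background of 20.0%, and of the 172 ESC pairs 72 had none in shGFP (41.9%, 34.4 to 49.6%). In equal windows 43.3% of the member TSSs with an ESC peak had none in shGFP (37.8 to 49.0%), against 31.5% of the other promoters (30.4 to 32.6%). Members thus lost more peaks than the others here too, with no knockdown in either list. From shSuz12 to shGFP, 39 of the 101 shSuz12 pairs had no peak in shGFP (38.6%). In equal windows the share was 39.0% for the member TSSs and 28.8% for the other promoters. The covered part of the region was lower in shSuz12 in 119 pairs and higher in 47, and of 62 pairs with a peak in both it was lower in 53. Of the pairs that changed 71.7% were lower, against 72.7% of the other promoters that changed. With a peak in both lists 85.5% of the pairs were lower, against 80.8% of the other promoters. The bp covered over all divergent regions fell from 89631 to 55561, which is 0.620 times, and at the other promoters it was 0.538 times. The 2 measures went in opposite directions, since by bp the other promoters fell further, while 51.9% of the member TSSs with a shGFP peak had none in shSuz12 (45.3 to 58.5%), against 43.8% of the other promoters (42.5 to 45.0%). Peaks were called separately in each library, so the sums of bp also move with how much was called. The whole shSuz12 list is narrower, with a median peak of 564 bp against 776 bp, and covers 83.5 Mb against 121 Mb. Whether depth or the knockdown sets these values cannot be told apart with 1 library each.

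Falls were ranked only among pairs with an ESC peak. Among the largest of these were Anxa5/1810062G17Rik, from 69.9% of the region to 0%, Cbln3/Khnyn, from 62.2% to 0%, Il11/Tmem190, from 59.0% to 0%, and Kctd19/Lrrc36, from 75.3% to 24.1%. Il11 is a cytokine of the interleukin 6 family and Cbln3 a cerebellin of the cerebellum. In untransfected ESCs these 4 pairs had 34.0, 63.2, 41.3 and 91.7%, where a value above 0% was fixed by that choice. Gm10447/Shroom1, with no ESC peak, fell from 69.8% to 0%. The shGFP peaks of the first 3 pairs had scores of 60.5 to 479, above the lowest score of the shSuz12 list. The largest rises were at Smpd2/Ppil6, from 0% to 42.5%, H2-T22/Gm6034, from 0% to 36.8%, Smyd1/Cd8b1, from 37.1% to 70.7%, Clmn/4930408O17Rik, from 0% to 31.5%, and Rnf25/Stk36, from 0% to 27.3%. In untransfected ESCs these pairs had 20.3, 0, 64.1, 32.5 and 32.5%, so only H2-T22/Gm6034 was bare in both lists without a knockdown. The 2 shSuz12 peaks at Smpd2/Ppil6 had scores of 35.4 and 41.3, and the peak at Rnf25/Stk36 had 36.9. All are below the lowest score of the shGFP list, so these rises could not have been seen in shGFP at the same score. The shSuz12 peaks at H2-T22/Gm6034 and Clmn/4930408O17Rik, with 57.6 and 72.5, are above it. H2-T22 belongs to a family of class I histocompatibility genes with close copies, where reads may not be placed with certainty.

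At the limit of the rule, the pairs with the longest distance inside it were Btf3l4/Txndc12 and Pdzd7/Sfxn3, both at 987 bp. The first had no peak in any list, and the second had 48.3% of its region under peaks in ESCs, 29.0% in MEFs, 29.8% in shGFP and 20.6% in shSuz12. Just outside it were Nacc1/Trmt1 at 1004 bp, with 21.6% in MEFs and 3.09% in liver, Serpina7/4930513O06Rik at 1007 bp, with none, and Atg14/Gm6616 at 1008 bp, with 21.8% in ESCs, 25.1% in brain, 27.5% in liver, 21.8% in shGFP and 17.7% in shSuz12. Pairs on the 2 sides of the limit were alike in that some were bare and some covered in several lists.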

How the data were processed

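GLIB-Seq peak lists of 6 libraries were used, and the 2 RNA-Seq samples were not analysed here. Per the labels and the study's methods, the authors mapped reads to mm9 with Bowtie 0.12.7, kept unique hits only, merged duplicates and ran MACS 1.4.1 on each library, after CASAVA 1.8. The deposited score of a peak is the value of MACS, on its scale of 10 times -log10 p. Thresholds and controls are not given in the sources used here, and depth is unknown. The deposited positions are the other measurement.

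Genes and sequence were taken from GENCODE M1 and its NCBIM37 genome, the same assembly as mm9. A TSS is the 5' end of a gene record. High CpG promoters had a window of 500 bp between -700 and +200 bp with a CpG observed to expected ratio above 0.75 and GC above 55%, and low CpG promoters none above 0.48. Non-coding partners are lincRNA, antisense and processed transcript records. Profiles were read every 50 bp. Named pairs were 15 well-known pairs where members, the 3 most covered, the 5 largest falls among pairs with an ESC peak and the 5 largest rises in the knockdown, the 3 largest excesses per cell type, and those at the limit of the rule. Some pairs that this rule names are not reported here. Members, lists and alternatives were chosen with earlier results of these data known. Shares have exact 95% intervals. Tools were scipy 1.17.1, pandas 2.3.3, matplotlib 3.10.9 and numpy 2.4.6 under Python 3.11.15, and the steps were tested on simulated peaks and genes.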

Additional observations from a re-analysis of the deposited data

Results flagged for a closer look

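The share of TSSs with a peak at divergent pairs relative to the other promoters lay on different sides of 1 in the cell types, below it in ESCs (0.597) and brain (0.970) and above it in MEFs (1.02) and liver (1.35). With 1 library of each, the difference between cell types was not tested. The CpG class moved with it, since among high CpG TSSs it was below 1 in each, with 0.548 for ESCs, 0.881 for MEFs, 0.964 for brain and 0.955 for liver. Among intermediate CpG TSSs it was 0.662, 0.771, 0.812 and 1.03, in the same order. Among low CpG TSSs it was above 1 in each, with 1.68, 1.63, 1.35 and 2.69.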

How the results depend on the processing

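Alternatives gave 146 values. Of these, 5 crossed a ratio of 1 and were counted apart, 82 of the rest lay inside the 95% counting interval around the reported value and 59 outside it. One that crossed, liver at 1.01 for TSSs at most 300 bp apart, still lay inside its interval of 0.898 to 1.06. With scores of 80 or more, ESCs and liver could not change, since their lists start there, so their agreement was fixed in advance. For ratios the interval is that of the share of divergent regions with a peak, scaled. Where a value moved, the cause was not tested, other than that fewer or shorter regions or peaks were counted by construction. The share of divergent regions with a peak was 14.7% in ESCs, 19.7% in MEFs, 13.5% in brain, 27.2% in liver, 9.53% in shGFP and 8.17% in shSuz12 with only the best-scoring 50% of peaks. With an overlap of at least 200 bp it was 18.1% in ESCs, 28.1% in MEFs, 16.6% in brain, 33.4% in liver and 12.4% in shGFP. With 500 bp on each side it was 10.9% in ESCs, 15.1% in MEFs, 8.54% in brain, 17.8% in liver, 9.41% in shGFP and 7.43% in shSuz12. With 2 kb on each side it was 42.1% in ESCs, 48.4% in MEFs, 40.2% in brain, 66.5% in liver, 29.1% in shGFP and 29.0% in shSuz12. With scores of 80 or more it was 13.1% in MEFs, 7.43% in brain, 10.1% in shGFP and 3.59% in shSuz12. Bp covered relative to other promoters were 0.354 in ESCs, 0.475 in MEFs, 0.341 in brain, 0.550 in liver and 0.356 in shGFP with 500 bp on each side. With 2 kb on each side they were 0.757 in ESCs, 1.03 in MEFs, 1.07 in brain, 1.46 in liver, 0.616 in shGFP and 0.714 in shSuz12. With TSSs at most 300 bp apart they were 0.378 in ESCs, 1.01 in liver, 0.366 in shGFP and 0.407 in shSuz12. With high CpG promoters only, in both sets they were 0.903 in brain and 0.840 in liver. With scores of 80 or more they were 0.622 in shSuz12. The centre relative to its flanks was 0.349 in ESCs, 0.244 in MEFs, 0.747 in shGFP and 0.717 in shSuz12 with only the best-scoring 50% of peaks. With TSSs at most 300 bp apart it was 0.195 in ESCs, 0.121 in MEFs, 0.0227 in brain, 0.0470 in liver, 0.326 in shGFP and 0.240 in shSuz12. With flanks 2 to 5 kb outside the TSSs it was 0.252 in ESCs, 0.314 in MEFs and 0.0809 in liver. With scores of 80 or more it was 0.289 in MEFs, 0.0353 in brain, 0.705 in shGFP and 1.04 in shSuz12. The share of shGFP pairs with no peak in shSuz12 was 72.0% with scores of 80 or more and 35.7% with 2 kb on each side. Leaving out chromosome 8 or the X, the latter chosen after the data had been seen, moved no value out of its interval, nor did lengthening the other promoters upstream. The lower bp cover of the 3 ESC lists stayed below 1 under each alternative run, while that of MEFs, brain and liver exceeded 1 with 2 kb on each side. No paired analysis was possible because conditions have a single library each, and no library could be left out for the same reason. The unknown depth and unequal lowest scores limit comparisons between lists.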
